A study of Homo sapiens with 20 samples.

Results

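CTCF sites that still carried a ChIP-seq peak after CTCF knockdown were compared between LNCaP and IMR90 cells, using the 4 CTCF siRNA libraries of the standard protocol. LNCaP is an epithelial line established from a prostate cancer metastasis, and IMR90 is a strain of normal human foetal lung fibroblasts. Both groups, 2 libraries each, were harvested 144 h after transfection with 20 nM of a pooled siRNA against CTCF, and chromatin was precipitated with a CTCF antibody. Beside them stand 2 control siRNA libraries of each line at the same dose and time, 2 low-cell CTCF siRNA libraries of IMR90, and 4 histone mark libraries of CTCF siRNA LNCaP, out of 20 libraries in the series. Peaks on the 22 autosomes that overlapped by at least 1 bp were merged over the 4 libraries, which gave 22104 sites remaining in at least 1 library. Of these, 2895 had a peak in all 4 libraries and are called shared. A further 9107 had a peak in both IMR90 libraries and in neither LNCaP library (IMR90-only), 189 had a peak in both LNCaP libraries and in neither IMR90 library (LNCaP-only), and 9913 showed other patterns.

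CTCF is a zinc finger protein that binds a long DNA motif through several of its fingers and stops the loop extrusion of cohesin, so that many of its sites lie at loop anchors and at the borders of topologically associating domains. Binding at a part of its motifs is lowered by methylation of a CpG inside them. When the protein is depleted by RNA interference, some sites keep enough CTCF to be detected, and the question here was whether these were the same sites in an epithelial cancer line and in a normal fibroblast. The extent of depletion, which was lower in IMR90 by the study's account, differed with the cell line and cannot be told apart from it. The same holds for the transfection procedure. The study's methods name a reagent for IMR90 alone, and describe a second transfection of LNCaP cells within the 144 h. The treatment text attached to the IMR90 libraries names LNCaP cells, whereas their titles and cell line labels give IMR90.

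The sequences below are the CTCF motifs found at the sites that lead each class, read from the hg19 assembly 5′ to 3′ on the strand of the motif, with the motif in capitals and 8 bases on either side. They show the motif at individual sites, and are too few to stand for the share of motifs with a CpG in each class. The first 4 belong to the shared sites with the best mean rank of fold enrichment.
SLC22A8 shared site, chr11:62791713-62791742, minus strand: cgctatagCCACCAGAGGGAGCagagggaa
BTNL2 shared site, chr6:32383388-32383417, plus strand: acacatggCCAGTAGATGACAGgtttgttc
MYHAS shared site, chr17:10520004-10520033, plus strand: cactcctgCCTCTAGGTGGCAGccttggct
RIMS1 shared site, chr6:73122090-73122119, plus strand: catctcagCCACAAGATGGCAGcagtgctt
Next are 3 of the 5 leading LNCaP-only sites, each with a CpG in the motif. Those at XKR4 and PCMTD2 held no CTCF motif as defined below.
IGHV3-49 LNCaP-only site, chr14:107012854-107012883, minus strand: gcacagagCCACCAGGGGGCGCtagggacc
IGHV3-15 LNCaP-only site, chr14:106610229-106610258, minus strand: gcgcggggCCACCAGGGGGCGCtcgtgacc
ARID1B LNCaP-only site, chr6:156983263-156983292, minus strand: tcacccctCCGGTAGAGGGCGCactctgcg
From the leading IMR90-only sites among those with a peak in both LNCaP control libraries, 2 are given. Those at SMOX, SLC2A7 and ARHGAP11A-SCG5 held no motif by that definition.
EPOP IMR90-only site, chr17:36833468-36833497, plus strand: catttcctCCGGTAGAGGACACtcgacccc
TMEM51-AS1 IMR90-only site, chr1:15455186-15455215, plus strand: agaactcgCCACTAGATGGCAGgacaatac

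IMR90 kept far more CTCF peaks than LNCaP. The CTCF siRNA libraries held 3652 and 7549 autosomal peaks in LNCaP and 18597 and 17947 in IMR90. The control libraries held 36888 and 44853 peaks in LNCaP and 34548 and 35661 in IMR90. Both IMR90 lists were thus longer than both LNCaP lists after CTCF siRNA, while the control lists of LNCaP were the longer ones. The mean was 5600.5 ± 2756 peaks in LNCaP and 18272 ± 459.6 in IMR90 (SD, n = 2), a difference of 12671.5 peaks or 3.26-fold. An exact two-sided permutation test over the libraries gave p = 0.333, the smallest value that 2 libraries against 2 allow. The library with the fewest peaks, the first LNCaP replicate, was also the least deeply sequenced in the study's list of read numbers. In that list both LNCaP CTCF siRNA libraries had fewer reads than both IMR90 ones. Depth thus differed with the line, and its part in the difference in peak number was not tested. Peaks were called in each library separately, so that a peak missing from a list fell below the threshold and may still be bound. The median fold enrichment over local background was 8.82 and 8.93 in the LNCaP libraries and 11.0 and 11.4 in the IMR90 libraries. Of the markers of prostate luminal cells, all 6 had H3K27ac in both LNCaP CTCF siRNA libraries within 1 kb of the gene start, and 4 had H3K4me3. Of 6 fibroblast markers 1, COL1A1, had H3K27ac in both and 3 had H3K4me3. No expression or histone data of IMR90 were used, so its identity rests on the labels.

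**Figure D1:**
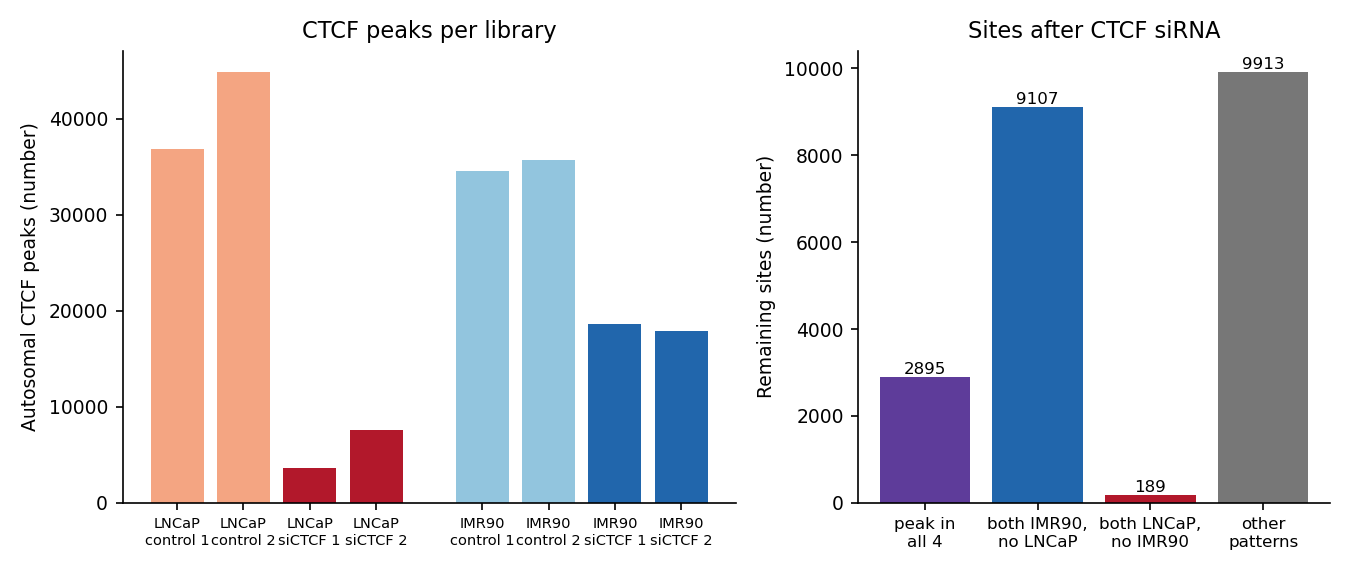
The left panel gives the number of autosomal CTCF peaks in each of the 8 standard libraries, and the right panel the number of merged sites in each class after CTCF siRNA. The CTCF siRNA bars stand at 3652 and 7549 peaks in LNCaP and at 18597 and 17947 in IMR90, and the IMR90-only class of 9107 sites is much taller than the LNCaP-only class of 189.

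Nearly all sites that remained in LNCaP also remained in IMR90, but not the reverse. Of 3160 sites with a peak in both LNCaP libraries, 2895 had a peak in both IMR90 libraries, a share of 91.6% (95% Wilson interval 90.6% to 92.5%). In 76 of the others a peak was found in 1 IMR90 library, and in 189, or 5.98%, in neither. Of all sites with a peak in both LNCaP control libraries, 45.7% had a peak in both IMR90 CTCF siRNA libraries. In the quintile of these with the highest control enrichment the share was 87.4%, so the 91.6% stood little above that of strong LNCaP sites in general. Of 15592 sites with a peak in both IMR90 libraries, 18.6% (18.0% to 19.2%) had a peak in both LNCaP libraries. LNCaP replicate 2 alone held a further 21.8% of the IMR90 sites, and LNCaP replicate 1 alone 1.24%. No LNCaP library had a peak at 58.4%. The 18.6% was bounded by list length, since only 3160 sites remained in both LNCaP libraries against 15592 in both IMR90 libraries. At equal list length, given below, 701 sites were LNCaP-only and 816 IMR90-only. The share of IMR90 sites found in a single LNCaP library was 19.8% for replicate 1 and 40.4% for replicate 2, so the size of the shared class rests on replicate 1. Without LNCaP replicate 1 the number of sites common to the other 3 libraries was 6293. The intervals cover counting error only, which is smaller than this difference between replicates.

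The shared sites with the best mean rank were among the strongest peaks of every library. At the site 8.44 kb from SLC22A8, an organic anion transporter gene (chr11:62791472-62792009), the fold enrichment was 30.9 and 51.1 in LNCaP and 70.9 and 71.2 in IMR90. The site 8.41 kb from BTNL2, a butyrophilin-like gene of the major histocompatibility region, had values of 27.5 and 45.2 in LNCaP and of 74.1 and 74.9 in IMR90. In an intron of MYHAS, a non-coding RNA gene in the myosin heavy chain cluster, the enrichment was 24.8 and 48.8 in LNCaP and 74.1 and 67.0 in IMR90. Both IMR90 values exceeded both LNCaP values at these sites, and the median of all shared sites was higher in IMR90 as well. The site 9.23 kb from RIMS1, which encodes a scaffold of the presynaptic release zone, read 24.8 and 50.7 in LNCaP and 67.9 and 63.0 in IMR90. The last, 48.8 kb from the tankyrase gene TNKS, read 38.2 and 32.4 in LNCaP and 81.2 and 89.2 in IMR90. All 5 had a peak in every control library, with a fold enrichment of 34.9 or more. Over all 2895 shared sites the median enrichment was 9.25 and 14.0 in LNCaP and 24.4 and 24.0 in IMR90.

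The stronger a site remained in IMR90, the more often it also remained in LNCaP. The IMR90-remaining sites were split into 10 deciles of mean fold enrichment. In the highest (29.3 to 85.1), 64.8% had a peak in LNCaP replicate 1, 91.3% in replicate 2 and 64.5% (62.1% to 66.8%) in both. In decile 5 (10.8 to 12.7) the corresponding shares were 9.24%, 26.7% and 7.95%. The lowest share in both LNCaP libraries was 2.76%, in decile 2, and the lowest decile stood above it at 7.37%. In every decile replicate 2 held more of the sites than replicate 1, and both rose with IMR90 enrichment from decile 2 on. LNCaP control libraries held 78.1% of the lowest decile and 99.9% of the highest. Ranked the other way, IMR90 held 76.9% of the lowest decile of LNCaP-remaining sites in both libraries and 97.8% of the highest.

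**Figure D2:**
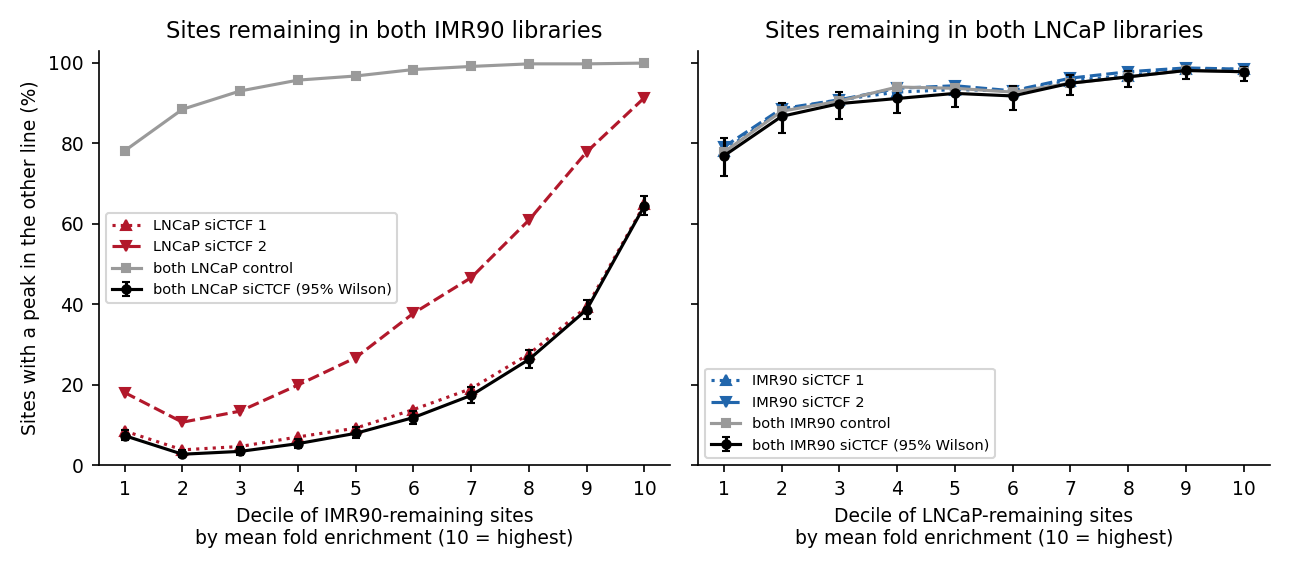
Sites remaining in both libraries of 1 line are split into 10 groups of equal size by mean fold enrichment, and the vertical axis gives the percentage with a peak in each library, in both CTCF siRNA libraries and in both control libraries of the other line, with bars for 95% Wilson intervals. The share of IMR90 sites remaining in both LNCaP libraries rises to 64.5% in the highest decile, while between 76.9% and 98.1% of every LNCaP decile remained in both IMR90 libraries.

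Most IMR90-only sites were bound in LNCaP cells that received the control siRNA. Of the 9107 sites, 8435 had a peak in both LNCaP control libraries, a share of 92.6% (92.1% to 93.1%). A further 325 had a peak in 1 of them and 347, or 3.81%, in neither. The IMR90-only class therefore consisted mainly of sites common to both lines that fell below the threshold in LNCaP after CTCF siRNA. Of the shared sites, 99.0% had a peak in both LNCaP control libraries and 98.5% in both IMR90 control libraries. At IMR90-only sites the median enrichment was 10.0 and 10.1 in the IMR90 CTCF siRNA libraries, and 13.6 and 16.3 where a peak was present in the LNCaP control libraries, against 22.7 and 26.6 at shared sites.

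Sites that remained in IMR90 remained in LNCaP more often than other LNCaP control sites of the same quintile of control enrichment. Among the quintile of LNCaP control sites with the highest control enrichment (20.8 to 65.6), 5662 remained in both IMR90 libraries, and 33.2% (31.9% to 34.4%) of these remained in both LNCaP libraries. Of 219 sites in the same quintile that both IMR90 control libraries held and both IMR90 CTCF siRNA libraries had lost, 3.65% (1.86% to 7.04%) remained in LNCaP. Of 152 with no peak in any IMR90 library, 8.55% (5.07% to 14.1%) did. The median LNCaP control enrichment of these sets was 26.8, 23.8 and 24.3, and their intervals of the remaining share did not overlap between the first and either of the others. In the next quintile (14.5 to 20.8) the remaining shares were 15.9%, 1.38% and 1.27%. From the IMR90 side, in the middle quintile of IMR90 control sites (11.0 to 15.6), 96.3% of the sites that remained in LNCaP remained in IMR90, 47.4% of those bound in the LNCaP controls and lost there, and 18.6% of those with no LNCaP peak. In the highest quintile (21.9 to 74.4) these shares lay closer together, at 100%, 94.9% and, of 30 sites, 86.7%.

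Among the IMR90-only sites chosen for a peak in both LNCaP control libraries, the leading 5 also had peaks in both IMR90 control libraries. The site 2.25 kb from EPOP, which encodes a partner of the Polycomb repressive complex, had an enrichment of 51.6 and 42.0 in IMR90 after CTCF siRNA and of 34.2 and 48.1 in the LNCaP controls, with no peak in either LNCaP CTCF siRNA library. At the site 12.2 kb from the spermine oxidase gene SMOX the values were 45.5 and 47.7 in IMR90 after CTCF siRNA and 21.6 and 27.8 in the LNCaP controls. An intron of SLC2A7, a hexose transporter gene, held a site with 42.5 and 44.5 in IMR90 against 12.6 and 12.9 in the LNCaP controls. The other two of the leading 5, in introns of TMEM51-AS1 and of the readthrough gene ARHGAP11A-SCG5, lay between 38.3 and 47.3 in IMR90. Sites without any LNCaP peak were weaker on the whole. The strongest of them, in an intron of WDR25 (chr14:100883735-100884154), had 39.3 and 29.7 in IMR90 after CTCF siRNA and 46.9 and 50.6 in the IMR90 controls. Next came sites in an exon of the non-coding gene ENSG00000285847 (25.8 and 22.3), and in introns of ENSG00000249240 (25.3 and 15.8), CCDC12 (25.6 and 13.6) and OPA3 (22.5 and 13.9).

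The 189 LNCaP-only sites were of several kinds. Both LNCaP control libraries had a peak at 109 of them (57.7%), 1 had a peak at 39 and neither at 41. In IMR90 control cells 26 had a peak in both libraries (13.8%), 26 in 1, and 137 (72.5%) in neither. Their median enrichment was low, 7.56 and 8.55 in the LNCaP CTCF siRNA libraries. The leading site lay 0.039 kb from IGHV3-49, a variable segment of the immunoglobulin heavy-chain locus (chr14:107012711-107013080), with 15.2 and 37.9 after CTCF siRNA, 42.1 and 52.5 in the LNCaP controls, and 5.32 in 1 IMR90 control library. Another of the leading 5 was 0.068 kb from IGHV3-15 in the same locus, with 19.9 and 18.2 after CTCF siRNA 30.0 and 25.2 in the LNCaP controls and 6.32 and 9.53 in the IMR90 controls. An intron of XKR4 held a site with 15.4 and 27.8 after CTCF siRNA 33.3 in both LNCaP controls and 5.10 in 1 IMR90 control. The site 114 kb from ARID1B, which encodes a subunit of the BAF chromatin remodelling complex, had 12.7 and 31.7 after CTCF siRNA, 37.2 and 36.9 in the LNCaP controls and no peak in the IMR90 controls. In an intron of PCMTD2 the values were 14.1 and 19.5 after CTCF siRNA against 10.6 and 16.6 in the LNCaP controls. Of the 41 LNCaP-only sites without a LNCaP control peak, none held the CTCF motif described below, 27 (65.9%) lay within 1 Mb of an assembly gap of at least 1 Mb, and 32 (78.0%) overlapped H3K4me3 in both LNCaP libraries. Among shared sites 0.760% lay so close to such a gap.

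At equal list length the libraries of 1 line overlapped more than libraries of different lines. When every list was shortened to its 3652 highest peaks by p-value, the length of the shortest, 68.3% of peaks overlapped between the LNCaP libraries and 78.2% between the IMR90 libraries. Between lines the shares were 48.9% and 50.7% for LNCaP replicate 1 and 60.6% and 59.1% for replicate 2. The mean of the between-line shares was 54.8% ± 5.89 (SD over 4 pairs, which share libraries), 18.4 percentage points below the mean within lines. All 4 between-line shares were below both within-line shares, and the exact permutation test over the 3 possible groupings gave p = 0.333, the smallest it allows. Control libraries shortened to the same length gave 65.5% and 70.3% within lines and 51.3% ± 4.95 between lines, a gap of 16.6 points. The gap between the lines was therefore of similar size in control and CTCF-depleted cells, and the difference between these gaps was not tested. For the 500 highest peaks the between-line share was 35.2% after CTCF siRNA and 35.9% in control cells.

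**Figure D3:**
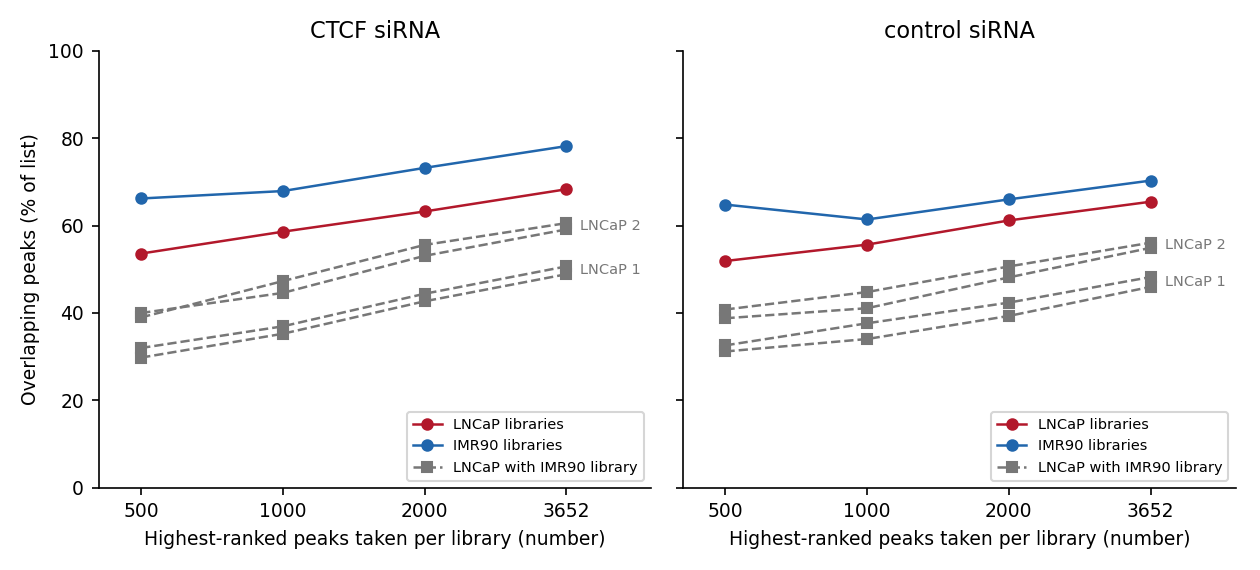
Each line joins the percentage of overlapping peaks for 1 pair of libraries when the 500, 1000, 2000 and 3652 highest peaks of each are taken, with CTCF siRNA on the left and control siRNA on the right and list lengths spaced evenly. The dashed pairs of different lines lie between 48.9% and 60.6% at 3652 peaks after CTCF siRNA, below the 68.3% and 78.2% of the pairs within a line.

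Classes built from the shortened lists were more even, with 1466 sites in all 4 lists, 701 in both LNCaP lists alone and 816 in both IMR90 lists alone. Of these 701, 78.9% had a peak in both full IMR90 lists, so that they ranked lower in IMR90 without being absent. The 816 could not have a peak in both full LNCaP lists, since that of replicate 1 was not shortened, and 55.5% had one in the full list of replicate 2. Both LNCaP control libraries held 99.6% of the 816, and both IMR90 control libraries held 81.9% of the 701.

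Fold enrichment ranked the sites alike within IMR90 and less alike elsewhere. Over sites with a peak in both libraries compared, Spearman's rho was 0.84 between the IMR90 libraries (15592 sites) and 0.57 between the LNCaP libraries (3160 sites). Between lines it was 0.29 with each IMR90 library for LNCaP replicate 1 (3149 and 3152 sites) and 0.46 and 0.43 for LNCaP replicate 2 (6437 and 6449 sites). On the 2895 shared sites LNCaP replicate 2 gave 0.57 with replicate 1 and 0.51 and 0.43 with the IMR90 libraries, so that each LNCaP library was nearest to the other. Over the 2832 shared sites with a peak in every control library, the control libraries gave 0.77 within LNCaP, 0.84 within IMR90 and 0.38 to 0.54 between lines. On the same sites the rho of a CTCF siRNA library with the controls of its own line was 0.26 to 0.54 in LNCaP and 0.57 to 0.62 in IMR90. These correlations are across sites, which share libraries and are not independent replicates.

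After quantile normalisation of the log2 fold enrichment over the 4 libraries, 144 of the 2895 shared sites differed between the lines (limma, Benjamini-Hochberg adjusted p under 0.05). Of all shared sites, 35 or 1.21% were higher in IMR90 and 109 or 3.77% higher in LNCaP. Median centring in place of quantile normalisation gave 70 and 277, and a block for replicate number gave 4 and 52. Only sites with a peak in all 4 libraries were tested, so the 9107 IMR90-only and 189 LNCaP-only sites could not be called. This filter left out far more sites that lacked a LNCaP peak than sites that lacked an IMR90 peak. The split of calls, and the features of the called sites given below, hold only for sites that passed it. The count depended on the libraries. It was 0 without either IMR90 library, when the only spread left was that of the LNCaP pair (267 and 256 sites at an unadjusted p under 0.05), 1512 without LNCaP replicate 1 and 755 without LNCaP replicate 2. At an unadjusted p under 0.05 the split was 369 higher in IMR90 and 386 higher in LNCaP.

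The sites with the smallest p in favour of IMR90 had peaks in all control libraries of both lines, with values from 16.1 to 43.3. In an intron of MYH3, the embryonic myosin heavy chain gene, enrichment was 5.28 and 5.90 in LNCaP and 25.3 and 34.5 in IMR90, a normalised log2 difference of 2.11 ± 0.30 (SE, n = 2 and 2, limma adjusted p = 0.0154). The LNCaP controls at that site had 23.7 and 29.7 and the IMR90 controls 19.2 and 20.3. In an intron of SGCZ, which encodes a sarcoglycan, the values were 5.52 and 5.72 in LNCaP and 23.8 and 30.7 in IMR90. TSPAN14, a tetraspanin gene, held an intronic site with 6.30 and 9.42 in LNCaP and 51.6 and 43.1 in IMR90. The site 2.39 kb from IGFBP2, which encodes a carrier of insulin-like growth factors, read 7.20 and 11.2 in LNCaP and 56.6 and 50.8 in IMR90. LNCaP and IMR90 values did not overlap at any of these 4 sites, which were chosen by p from these same values. Their limma adjusted p-values ranged from 0.0154 to 0.0215, and each lost its call when either IMR90 library was left out.

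The sites with the smallest p in favour of LNCaP were of another kind. The first, 44 kb from DNAJB6, a chaperone gene, had 49.4 and 41.8 in LNCaP and 1.45 and 1.78 in IMR90, a normalised log2 difference of -4.42 ± 0.30 (SE, limma adjusted p = 0.00379). It was also uneven in control cells, with 22.3 and 27.1 in LNCaP and 1.51 and 1.90 in IMR90. Sites in introns of LINC00114 (29.8 and 35.7 in LNCaP, 2.40 and 2.89 in IMR90) and of the anaphase-promoting complex gene ANAPC7 (23.2 and 27.3, 1.84 and 2.16) behaved alike. So did those 28.4 kb from C1orf94 (23.5 and 29.7, 1.96 and 2.44) and in an intron of PRKCQ, the protein kinase C theta gene (16.1 and 26.9, 2.59 and 3.09). None of these 5 kept its call when either IMR90 library was left out. None held the CTCF motif, and all overlapped H3K27ac in both LNCaP libraries. The LNCaP controls had 14.6 and 19.8 at LINC00114, 12.6 and 18.1 at ANAPC7, 13.0 and 18.3 at C1orf94, and 15.1 and 20.2 at PRKCQ. At all of the 5 but PRKCQ, both LNCaP values after CTCF siRNA were thus above both LNCaP control values. Over all shared sites the LNCaP medians were 22.7 and 26.6 in the controls and 9.25 and 14.0 after CTCF siRNA. Over the 109 sites higher in LNCaP, 38.5% held the motif, against 85.7% of the 35 higher in IMR90 and 89.5% of all shared sites. H3K27ac overlapped 41.3% of the 109, 17.1% of the 35 and 15.4% of all shared sites. Control libraries already differed at them, with a median log2 difference between IMR90 and LNCaP of -1.13 at the 85 of the 109 with a peak in all 4 controls, 0.29 at the 35, and -0.02 at all shared sites. The part of this control difference in the calls was not tested.

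**Figure D4:**
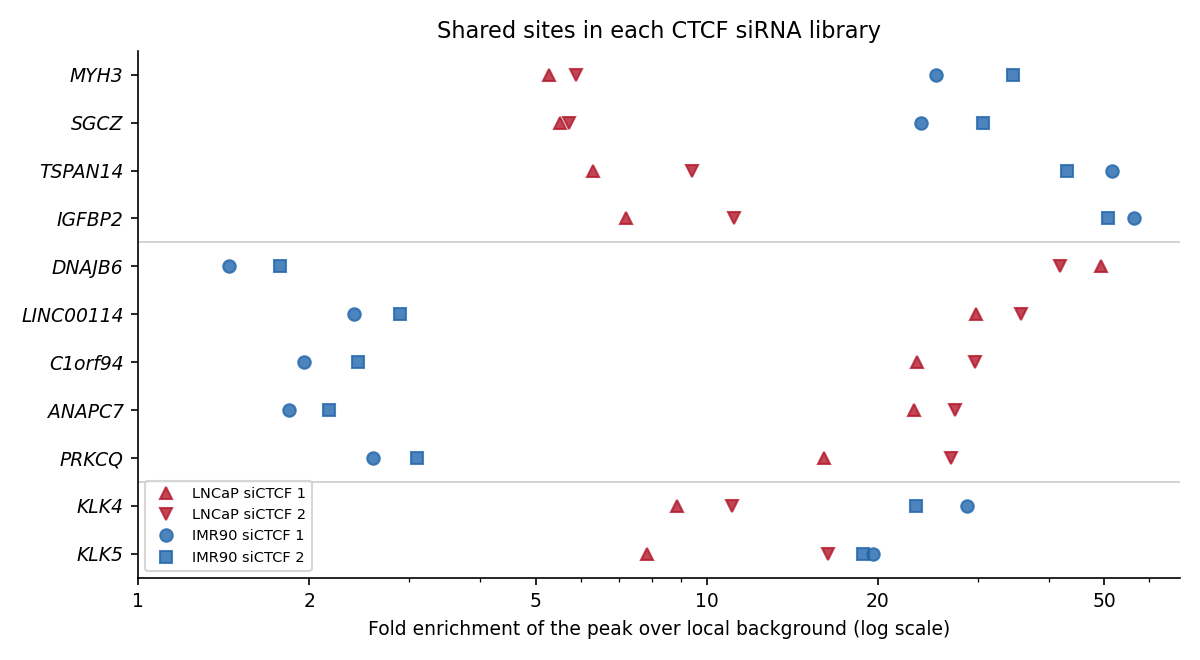
The horizontal axis, on a log scale, gives the fold enrichment of a peak over local background, and each point is 1 CTCF siRNA library at the shared site named on the left, with sites higher in IMR90 at the top, sites higher in LNCaP in the middle and the KLK4 and KLK5 border at the bottom. At the DNAJB6 site LNCaP stands at 49.4 and 41.8 and IMR90 at 1.45 and 1.78, and at the MYH3 site LNCaP stands at 5.28 and 5.90 and IMR90 at 25.3 and 34.5.

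The CTCF consensus motif, 14 bases searched on both strands within 100 bp of the summit with at most 2 mismatches, was found at 89.5% (88.3% to 90.5%) of shared sites. It was found at 78.2% (77.4% to 79.1%) of IMR90-only and at 32.3% (26.0% to 39.2%) of LNCaP-only sites. Windows of the same length 1000 bp away held it at 5.35% of all sites. With no mismatch it was found at 781 of the 2895 shared sites, at 12.6% of IMR90-only and at 8.47% of LNCaP-only sites. The motif was thus nearest to the consensus at the sites that remained in both lines. At LNCaP-only sites with a peak in both IMR90 control libraries 23 of 26 held the motif, against 26 of the 137 without an IMR90 control peak. Of the 347 IMR90-only sites with no LNCaP control peak 23.9% held it. The classes also differed at matched IMR90 enrichment: with at most 1 mismatch, the motif was present at 69.9% of shared and 51.2% of IMR90-only sites in the middle quintile of IMR90-remaining sites (10.8 to 15.0), and at 71.8% and 49.7% in the highest. In the lowest quintile the order was turned, with 20.9% of 158 shared and 39.2% of 2635 IMR90-only sites.

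A CpG inside the motif was more frequent where LNCaP kept CTCF. Of the motifs at shared sites 49.6% (47.7% to 51.5%) contained a CpG, against 29.0% (28.0% to 30.1%) at IMR90-only sites. At the 61 LNCaP-only sites with a motif the share was 72.1% (59.8% to 81.8%). Most of these CpGs lay at bases 12 and 13, counted from 1 at the 5′ end of the motif as in the sequences above, at 43.3% of shared, 23.2% of IMR90-only and 68.9% of LNCaP-only motifs. Bases 2 and 3 formed a CpG in 7.68%, 4.39% and 14.8%. In each quintile of IMR90 enrichment the shared motifs held more CpGs, with 54.5% against 25.2% in the lowest quintile and 48.4% against 38.7% in the highest. Shared motifs were also closer to the consensus, and the CpG shares were not compared at an equal number of mismatches. DNA methylation was not analysed here.

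Position and chromatin differed as well. Median GC content in 200 bp around the summit was 52.0% at shared, 47.5% at IMR90-only and 46.5% at LNCaP-only sites. Few sites of any class lay within 1 kb of the start of a protein-coding gene, 4.15% of shared, 5.47% of IMR90-only and 2.65% of LNCaP-only sites. The median distance to a gene start was 34.9, 31.7 and 169 kb. H3K4me3 regions of both LNCaP CTCF siRNA libraries overlapped 19.8% of shared, 11.1% of IMR90-only and 39.7% of LNCaP-only sites. For H3K27ac, an acetylation found at active regulatory elements, the shares were 15.4%, 16.9% and 38.1%. H3K4me3 was thus more frequent at shared than at IMR90-only sites, and H3K27ac was not. The LNCaP-only class was mixed. At its 41 sites without a LNCaP control peak the shares were 78.0% for H3K4me3 and 80.5% for H3K27ac. At the 109 bound in both LNCaP controls they were 31.2% and 26.6%, and at the 26 bound in both IMR90 controls 15.4% and 7.69%. Within 1 Mb of a large assembly gap lay 18.5% of LNCaP-only sites, against 0.760% of shared and 0.604% of IMR90-only sites. Leaving such sites out, a choice made after seeing the data, left 154 LNCaP-only sites.

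**Figure D5:**
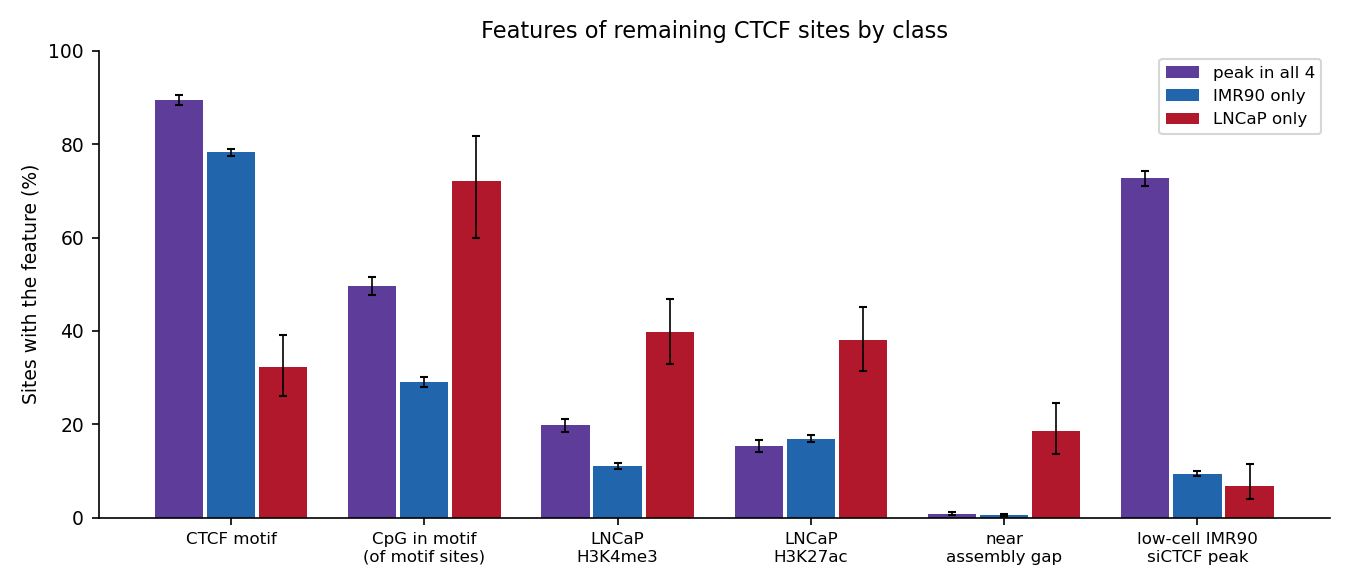
Bars give the percentage of shared, IMR90-only and LNCaP-only sites with each feature named below them, and error bars are 95% Wilson intervals. The motif share falls from 89.5% at shared to 32.3% at LNCaP-only sites, whereas a CpG within the motif rises from 29.0% at IMR90-only to 72.1% at LNCaP-only sites.

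The low-cell IMR90 libraries, made from the same line with a protocol for few cells, favoured the sites that LNCaP also kept. They held 4978 and 1921 autosomal peaks. Both had a peak at 39.4% of shared sites and at 1.64% of IMR90-only sites, and at least 1 had a peak at 72.7% and 9.44%. LNCaP-only sites had a peak in either at 6.88%. The shared and IMR90-only classes differed also within a quintile of standard IMR90 enrichment. In the highest quintile 86.8% of 1609 shared and 37.6% of 465 IMR90-only sites had a low-cell peak, and in the second quintile 43.5% of 138 and 5.41% of 2552. Within the highest quintile the median standard enrichment was 31.8 at shared and 26.2 at IMR90-only sites, and in the second quintile 9.51 and 9.11.

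Genes of 7 lists were then examined for sites within the gene or 5 kb of it. These were HOX, clustered protocadherin, imprinted, prostate luminal, fibroblast, CTCF and cohesin, and ribosomal protein genes. Of 19222 autosomal protein-coding genes, 7.45% had a shared site, 39% a site remaining in both IMR90 libraries, 7.87% a site remaining in both LNCaP libraries, 28.1% an IMR90-only site and 0.385% a LNCaP-only site. The HOX genes, homeobox regulators of body patterning, had the largest share of the 7 lists, with 13 of 39 genes (33.3%) near a shared site. These 13 genes rested on 6 sites, since neighbouring HOX genes lie within 5 kb of the same site. The site in HOXB7 was the strongest in LNCaP, with 19.4 and 33.5 against 38.0 and 31.8 in IMR90, and that near HOXA7 and HOXA9 had 17.7 and 14.0 in LNCaP and 37.8 and 31.4 in IMR90. None of the 6 differed between the lines by limma, with adjusted p from 0.214 to 0.964. In the clustered protocadherins, cell surface proteins whose promoter choice depends on CTCF, 14 of 53 genes counted a shared site, all of them through 1 site where the overlapping genes of the gamma cluster run in parallel. An IMR90-only site was near 22 protocadherin genes (41.5%, beside 28.1% of all protein-coding genes). A LNCaP-only site was near PCDHB2 and PCDHB3, with 9.69 and 7.01 in LNCaP.

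Imprinted genes, expressed from 1 parental allele, had a shared site at 4 of 30, IGF2, KCNQ1, CDKN1C and MAGEL2. In IGF2, a growth factor gene, the site read 14.8 and 27.2 in LNCaP and 40.6 and 31.4 in IMR90. At MAGEL2 it was higher in LNCaP, with 17.7 and 24.2 against 14.8 and 13.3, a normalised log2 difference of -1.49 (limma adjusted p = 0.0296). Prostate luminal genes had a shared site at 3 of 30 (ACP3, ALDH1A3 and GRHL2) and fibroblast genes at 5 of 30 (COL1A1, COL6A1, FAP, FOXF1 and PDGFRA). The sites of 2 of these fibroblast genes were higher in LNCaP, beside 3.77% of all shared sites, and no shared site was called when either IMR90 library was left out. At COL6A1, a collagen gene, values were 10.7 and 13.9 in LNCaP and 3.24 and 3.97 in IMR90 (limma adjusted p = 0.0105), at a summit without the motif. At FAP, fibroblast activation protein, they were 10.7 and 22.7 against 11.3 and 9.40 (limma adjusted p = 0.0389), so that the deposited values overlapped and the normalised ones differed. CTCFL, the germline paralogue of CTCF, was the 1 gene of 18 in the CTCF and cohesin list with a shared site, and ribosomal protein genes had 4 of 73 (5.48%). An IMR90-only site was near 10 prostate luminal (33.3%), 7 fibroblast (23.3%), 4 imprinted (13.3%), 6 CTCF and cohesin (33.3%) and 23 ribosomal protein genes (31.5%). The share over all protein-coding genes was 28.1%. None of these 5 lists had a LNCaP-only site, which only 0.385% of all protein-coding genes had.

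At the border between KLK4, a kallikrein active in prostate epithelium, and KLK5, a kallikrein of stratified epithelia, both sites remained in all 4 libraries. The site towards KLK4 (chr19:51425476-51425938, 11.0 kb from the gene) had 8.86 and 11.1 in LNCaP and 28.7 and 23.4 in IMR90. The site towards KLK5 (13.3 kb from the gene) had 7.85 and 16.4 in LNCaP and 19.6 and 18.8 in IMR90. Both held the motif, and that of the KLK4 site, which has no CpG, is shown.
KLK4 border site, chr19:51425674-51425703, minus strand: ctccggctCCACTAGGTGGCAGtattgcac
Enrichment was higher in both IMR90 libraries at both sites as deposited. After normalisation the log2 difference was 0.29 ± 0.27 towards IMR90 at the KLK4 site (SE, limma adjusted p = 0.520) and -0.22 ± 0.29 at the KLK5 site (limma adjusted p = 0.656), so neither was called different between the lines.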

How the data were processed

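CTCF ChIP-seq peak lists of 4 CTCF siRNA and 4 control siRNA libraries, 2 per line and treatment, were used, with 2 low-cell and 4 histone mark lists. The authors' processing notes and methods name Bowtie for alignment, MACS2 for peaks of each library at a q-value of 0.05, and the hg19 build. The deposited fold enrichment is a ratio to local background, not scaled between libraries, and deposited p-values and q-values are on a −log10 scale. The deposited histone regions carry a score that was not used. The study's methods call the ChIP-seq replicates biological duplicates. X, Y and other contigs (80 to 592 peaks per CTCF siRNA library) were left out.

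A site takes the highest peak of each library and the summit with the smallest p-value. limma 3.58.1 (R 4.3.3) was fitted to all shared sites, and exact permutation tests ran over libraries. Python 3.11.15 with numpy 2.4.6, pandas 2.3.3, scipy 1.17.1 and matplotlib 3.10.9 did the rest. Sites were annotated with GENCODE release 44 mapped to hg19. The statistical scripts were tested on simulated data. Named are the 5 sites with the best mean rank in each class (IMR90-only sites split by LNCaP control peaks), the 5 smallest limma p in each direction and the KLK4 and KLK5 border. 1 site higher in IMR90 and 1 motif sequence that these rules give are not reported here. Members, lists and rules were chosen with earlier results of these data known. Control histone and low-cell control lists were not used here.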

Additional observations from a re-analysis of the deposited data

How the results depend on the processing

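Most counts held within 1.5 times under other overlaps, a q-value of at most 0.001 and all contigs, and 45 of 67 alternatives of the main results moved them by less than the spread or that factor. Lists shortened to 3652 peaks gave 1466 shared, 701 LNCaP-only and 816 IMR90-only sites. A peak in either library gave 1188 LNCaP-only and 14080 IMR90-only sites. Leaving out a library gave 2925 to 6293 shared and 218 to 942 LNCaP-only sites. The between-line overlap was 35.2% and 41.0% for the 500 and 1000 highest peaks, and 49.8% to 64.1% without 1 library. The 144 shared sites that limma called different became 347 with median centring (70 higher in IMR90, 277 in LNCaP) and 0 to 1512 without 1 library, where the lone library is assumed to vary like the other line. With the replicate block they became 56, 4 higher in IMR90 and 52 higher in LNCaP. Libraries with the same number deviated in opposite ways (r = -0.17), and with the crossed replicate block, chosen after seeing the data, the count was 463. The labels do not pair the libraries. Of the 9 shared sites named for their limma p, direction held under every alternative, and each lost its call when either IMR90 library was left out, TSPAN14 and IGFBP2 also with the block. The uncalled KLK4 difference turned to -0.019 when the p-value column was used, and that of KLK5 ranged from -0.74 to 0.052 without 1 library, turning without LNCaP replicate 2. Leaving out sites near large gaps, or LNCaP-only sites with no LNCaP control peak, both chosen after seeing the data, left 154 and 148 LNCaP-only sites. Within 50 kb, 32 of 39 HOX genes and 22.2% of all protein-coding genes had a shared site. With 1 mismatch the motif was 21.7 percentage points more frequent at shared than at IMR90-only sites (11.2 with 2). Gene starts within 5 kb differed by -3.14 points (-1.32 within 1 kb). With summits within 100 bp, 90.8% of IMR90-only sites were bound in both LNCaP controls. Counting a peak in either low-cell library, in place of both, gave 72.7% of shared sites. The cause of these shifts was not tested. The part of sequencing depth in the LNCaP counts was not tested, and a site missing from a list may have fallen just below the threshold.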

Other observations

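The share of IMR90-remaining sites that also remained in LNCaP varied by chromosome, from 10.9% (95% Wilson interval 7.90% to 14.8%) of 312 sites on chromosome 18 to 24.5% (20.8% to 28.6%) of 466 on chromosome 20. LNCaP-only sites made up 26.1% of the 46 LNCaP-remaining sites of chromosome 18 and 1.68% of the 119 of chromosome 20. Copy number, which acts on the depth behind each peak, was not measured here. Shared sites lay between genes more often than IMR90-only sites, at 50.4% against 34.4%, and in introns less often, at 42.8% against 55.9%.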
